A study of Homo sapiens with 18 samples.

Results

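The genes described here are the voltage-dependent anion channels of the mitochondrial outer membrane (VDAC1, VDAC2 and VDAC3), the ubiquitin ligases NEDD4 and NEDD4L, and the adenine nucleotide carriers of the inner membrane (SLC25A4, SLC25A5 and SLC25A6). They were chosen by symbol, since VDAC channels are known to bind Erastin and the ligases and carriers act on or beside these channels. They are 8 of the 58302 genes in the count table, and all 8 had enough counts to be tested.

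VDAC channels are barrel-shaped pores through which ATP, ADP, metabolites and ions cross the outer membrane, and adenine nucleotide carriers then exchange ADP for ATP across the inner membrane. Erastin is known to block system Xc-, the importer of cystine, and also to bind VDAC2 and VDAC3. In melanoma cells, NEDD4 is known to mark VDAC2 and VDAC3 with ubiquitin after Erastin, and the transcription factor FOXM1 to drive NEDD4. RNA libraries hold no measure of binding, of ubiquitin or of protein, so the status of the channels as direct Erastin targets was not examined here.

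RNA-seq was performed in U87 cells (also called U87MG), an established human glioblastoma cell line, and every library comes from this 1 line. Control cells grew in the normal condition, with no vehicle named in the labels, and treated cells received 10 μM Erastin for 72 h. Each group held 2 libraries, which the series describes as biological replicates, so p-values measure only the spread between these samples. H3K27ac and H3K4me1 ChIP-seq and H3K27ac HiChIP of the same cells were not analysed here.

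The libraries held between 29412656 and 31513519 counts on genes, and between 23519 and 23990 genes had a count. Transcripts of VIM and CD44, high in glioblastoma lines, were abundant, with at least 48117 and 31559 counts in each library, although both fell (log2 fold change −0.60, edgeR adjusted p 1.27e-05, and −0.36, 0.000644). S100A6 rose by 0.20 (0.0273), a call lost without Erastin replicate 2 (0.282), whereas the astrocyte water channel AQP4 was at 0 and S100B had at most 2 counts. GFAP was detected, with 46 and 41 counts in control and 69 and 81 in Erastin libraries. It did not pass (log2 fold change 0.79, edgeR adjusted p 0.0696). OLIG2 had 59 to 88 counts and did not pass either (−0.40, edgeR adjusted p 0.305), and SOX2 had at most 6. NES, a progenitor marker, had 1277 and 972 counts in control and 105 and 77 in Erastin libraries. Of 4 immune markers, AIF1 and CD3E were at 0, PTPRC had 1 count in all, and CSF1R fell from 8.37 and 8.34 to 4.91 and 5.63 CPM, or scaled counts per 1000000 (log2 fold change −0.66, edgeR adjusted p 0.0116, and 0.0744 without Erastin replicate 1). Of 4 endothelial markers, CLDN5 was at 0, CDH5 had 1 count, PECAM1 fell from 138 and 188 to 31 and 33 counts, and VWF went from 4 in each control library to 17 and 32, a rise whose call was lost without control replicate 1, control replicate 2 or Erastin replicate 2 (edgeR adjusted p 0.0514, 0.0519 and 0.215). The summed level was 0.958 to 1.63 CPM per kilobase for the immune and 0.194 to 0.792 for the endothelial list. The summed level of 4 neuronal markers fell from 13.6 and 14.9 to 2.81 and 3.26 CPM per kilobase, mostly through SNAP25. In bulk RNA, fewer cells of a kind and less RNA per cell cannot be told apart, and the part of these marker changes in the results below was not tested.

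Levels of different genes were compared as CPM per kilobase. These are counts per 1000000 after TMM scaling, divided by the exon length of the gene. TMM scaling is a library factor that adjusts for the makeup of the RNA. The exon length covers all exons of the gene model merged, so the order of genes and their shares depend on it. On this scale, SLC25A5 was the most abundant of the 8 transcripts in control cells, at 184 ± 0.541 (SD, n = 2), followed by VDAC1 at 129 ± 2.89 and VDAC2 at 63.1 ± 0.487. VDAC3 at 26.7 ± 1.57 and SLC25A6 at 25.1 ± 4.06 did not differ beyond their spread. NEDD4 stood at 15.5 ± 0.174, NEDD4L at 6.42 ± 0.118, and SLC25A4 at 0.841 ± 0.0143. SLC25A4, the form of heart and skeletal muscle, was thus the scarcest carrier, and SLC25A5, the form of dividing cells, the most abundant. In Erastin-treated cells the order was SLC25A5 (124 ± 0.349), VDAC1 (108 ± 1.69), VDAC2 (76.5 ± 5.05) and VDAC3 (32.4 ± 1.69). NEDD4 (18.7 ± 0.492) and SLC25A6 (17.3 ± 1.52) then overlapped, with NEDD4L (5.13 ± 0.384) and SLC25A4 (0.816 ± 0.0760) last.

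**Figure D1:**
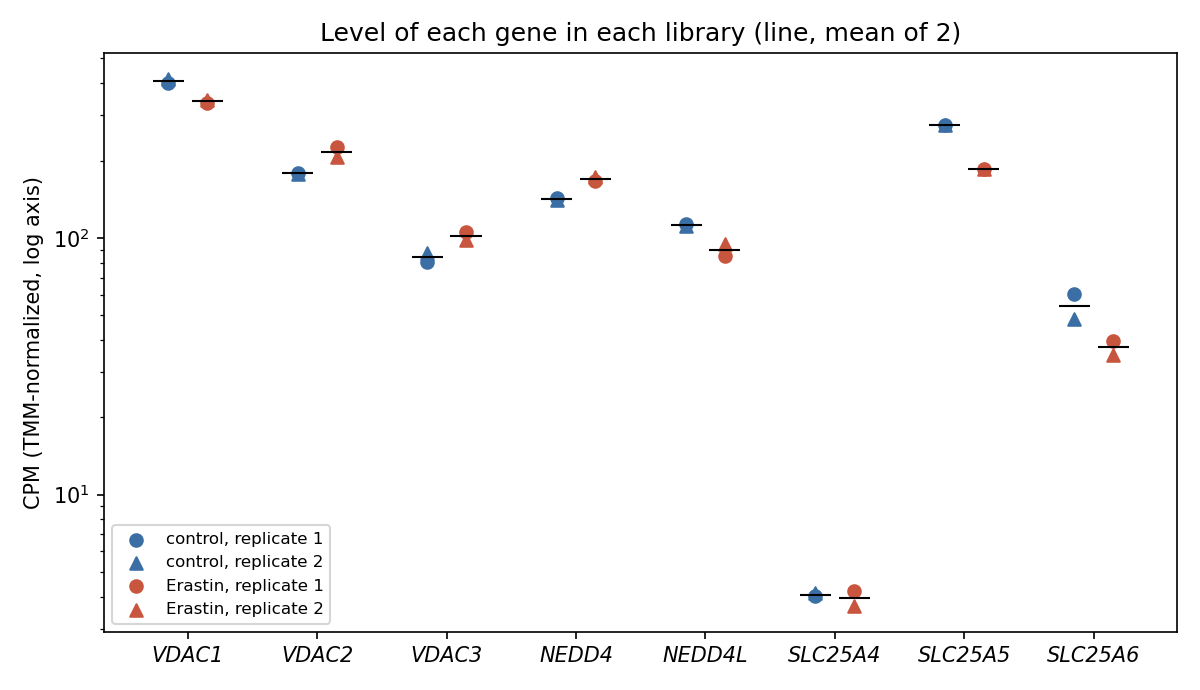
Level of each of the 8 genes in each library, as CPM after TMM scaling on a log axis (circles, replicate 1; triangles, replicate 2; blue, control; red, Erastin; black lines, group means). The control and Erastin points are separate for 7 genes, as for 73.6% of all tested genes, and overlap for SLC25A4. CPM is not divided by length, so heights compare libraries, not genes.

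Each gene was compared between Erastin and control cells with edgeR's quasi-likelihood test, fitted over 16751 genes with Benjamini-Hochberg adjustment. Of the 8 genes, 3 rose (VDAC2, VDAC3 and NEDD4), where 23.2% of all tested genes rose, and 4 fell (VDAC1, NEDD4L, SLC25A5 and SLC25A6), where 23.7% of all tested genes fell at an adjusted p under 0.05. SLC25A4 did not pass. The control and Erastin libraries did not overlap for 7 of the 8, against 73.6% of all tested genes. With 47.0% of all tested genes passing in either direction, a small change that passes was common in these libraries. None of the 8 reached a log2 fold change of 1 in size, which 6.24% of tested genes did upward and 9.34% downward with a passing p. The median log2 fold change was −0.15 over the 8 genes and −0.0026 over all tested genes. The median size of the change over all tested genes was 0.43, whereas the largest among the 8 was 0.57.

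The promoter windows of VDAC1, VDAC2 and SLC25A5 are shown because these are the leading channel that fell, the leading channel that rose, and the member with the largest change. Each is the 250 bases before the 5′ end of the gene model in the count table, on the coding strand in hg38. The windows are chr5:134005134-134005383 on the minus strand for VDAC1, chr10:75209904-75210153 on the plus strand for VDAC2, and chrX:119468150-119468399 on the plus strand for SLC25A5. Capitals mark a GC box, GGGCGG on either strand, which is the core letters bound by SP1.
VDAC1: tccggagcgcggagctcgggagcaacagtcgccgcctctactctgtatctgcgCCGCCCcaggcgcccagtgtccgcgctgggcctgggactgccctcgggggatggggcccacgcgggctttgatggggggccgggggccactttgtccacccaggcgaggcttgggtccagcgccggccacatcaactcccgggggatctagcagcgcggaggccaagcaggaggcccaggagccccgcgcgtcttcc
VDAC2: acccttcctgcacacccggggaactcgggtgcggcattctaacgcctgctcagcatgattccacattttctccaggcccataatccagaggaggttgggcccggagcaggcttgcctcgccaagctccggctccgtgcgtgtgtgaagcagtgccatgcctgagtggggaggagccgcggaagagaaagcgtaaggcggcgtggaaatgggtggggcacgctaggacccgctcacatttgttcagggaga
SLC25A5: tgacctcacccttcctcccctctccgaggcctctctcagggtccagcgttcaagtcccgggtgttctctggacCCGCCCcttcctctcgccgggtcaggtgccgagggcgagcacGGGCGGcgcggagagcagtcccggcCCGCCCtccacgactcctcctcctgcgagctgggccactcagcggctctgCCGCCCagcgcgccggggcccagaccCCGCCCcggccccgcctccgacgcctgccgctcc

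The SLC25A5 window held 5 GC boxes, from 34 to 177 bases before the start, the VDAC1 window held 1 at 197 bases, and the VDAC2 window held none. GC boxes occurred in the windows, cut from hg38, of 5 of the 8 genes, against 54.2% of 12839 windows of the same length. CCAAT, searched on both strands like the others, was found for NEDD4L and SLC25A4, against 32.5% of windows. Of the other motifs, none of the 8 windows held GCGCA followed at once by TGCGC (NRF1, 1.29% of windows), CCGGAAGT (ETS, 4.26%), TGATGNAA (ATF4 element, 1.81%) or TGAC, any 4 bases and GC (antioxidant element, 11.7%). The GC content of the window was 72.8% for VDAC1, 61.6% for VDAC2 and 75.2% for SLC25A5, against a median of 60.8% over all windows. A RefSeq start lies within 158 bases of the start used here for VDAC1, within 16 for VDAC2 and within 44 for SLC25A5. The nearest is 134 bases away for NEDD4, 25 for SLC25A4, 611 for SLC25A6 and 2859 for NEDD4L, and VDAC3 was not matched in the table of starts used here, so the distances and the motif counts depend on the gene model.

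VDAC1, the most abundant channel and a docking site of hexokinase, fell in Erastin-treated cells. It (ENSG00000213585, chr5:133971915-134005133, minus strand in hg38) had 12272 and 12870 counts in control and 10061 and 10806 in Erastin libraries, or 401 and 414 CPM against 336 and 344. Both Erastin libraries lay below both control libraries. The fall was 16.6%, with a log2 fold change of −0.26 (SE 0.0625, 95% interval −0.40 to −0.12) and an adjusted p of 0.00467 in edgeR's quasi-likelihood test. A larger change in size was seen for 66.6% of tested genes. Without Erastin replicate 1, the log2 fold change was −0.25 and its adjusted p, from edgeR with the lone Erastin library taken to vary like the controls, was 0.0670.

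VDAC2, the channel that holds BAK at the outer membrane and a known binder of Erastin, rose. VDAC2 (ENSG00000165637, chr10:75210154-75231448, plus strand) had 5482 and 5509 counts in control and 6774 and 6481 in Erastin libraries. In CPM these were 179 and 177 against 226 and 206, with both Erastin libraries above both controls. Its log2 fold change was 0.28 (SE 0.0696, 95% interval 0.13 to 0.43), a rise of 21.3%, with an adjusted p of 0.00605 in the same edgeR fit. The rise was 0.21 on the log2 scale without Erastin replicate 1, where the adjusted p from edgeR was 0.117.

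VDAC3, the least abundant channel and the other known binder of Erastin, rose by a like amount. VDAC3 (ENSG00000078668, chr8:42391624-42405897, plus strand) had 80.4 and 87.3 CPM in control and 105 and 98.0 CPM in Erastin libraries, from 2457 to 3154 counts. The Erastin libraries were again the higher pair. The log2 fold change was 0.28 (SE 0.0759, 95% interval 0.11 to 0.44), with an adjusted p of 0.0100 from edgeR. Without Erastin replicate 1 it was 0.22, with an adjusted p of 0.115.

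VDAC1 and the other channels thus moved in opposite directions, and the makeup of the channel transcripts shifted. VDAC1 made up 58.8% and 59.1% of channel transcripts (counts per exon base) in control and 48.3% and 51.1% in Erastin libraries, a mean difference of −9.25 percentage points. VDAC2 made up 29.4% and 28.3% in control and 36.4% and 34.3% in Erastin libraries, and VDAC3 went from 11.8% and 12.6% to 15.3% and 14.7%. The ratio of VDAC1 to VDAC2 was 2.00 and 2.09 in control and 1.33 and 1.49 in Erastin libraries. These shares are ratios within a library and need no scaling between libraries. No test of the shares was run, and the smallest two-sided p of an exact permutation test with 2 libraries against 2 is 0.333.

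The summed level of the 3 channels did not move beyond the spread of the replicates. It was 216 and 222 CPM per kilobase in control and 220 and 213 in Erastin libraries, a ratio of 0.990. The side of 1 on which this ratio falls depends on the scaling, with 1.02 on plain library totals, 1.13 on TPM (counts per exon base, scaled so that every library sums to the same total) and 0.945 on TPM without the genes of mitochondrial DNA. Genes of the mitochondrial chromosome took 27.5% and 25.7% of TPM in control and 10.9% and 13.8% in Erastin libraries.

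**Figure D2:**
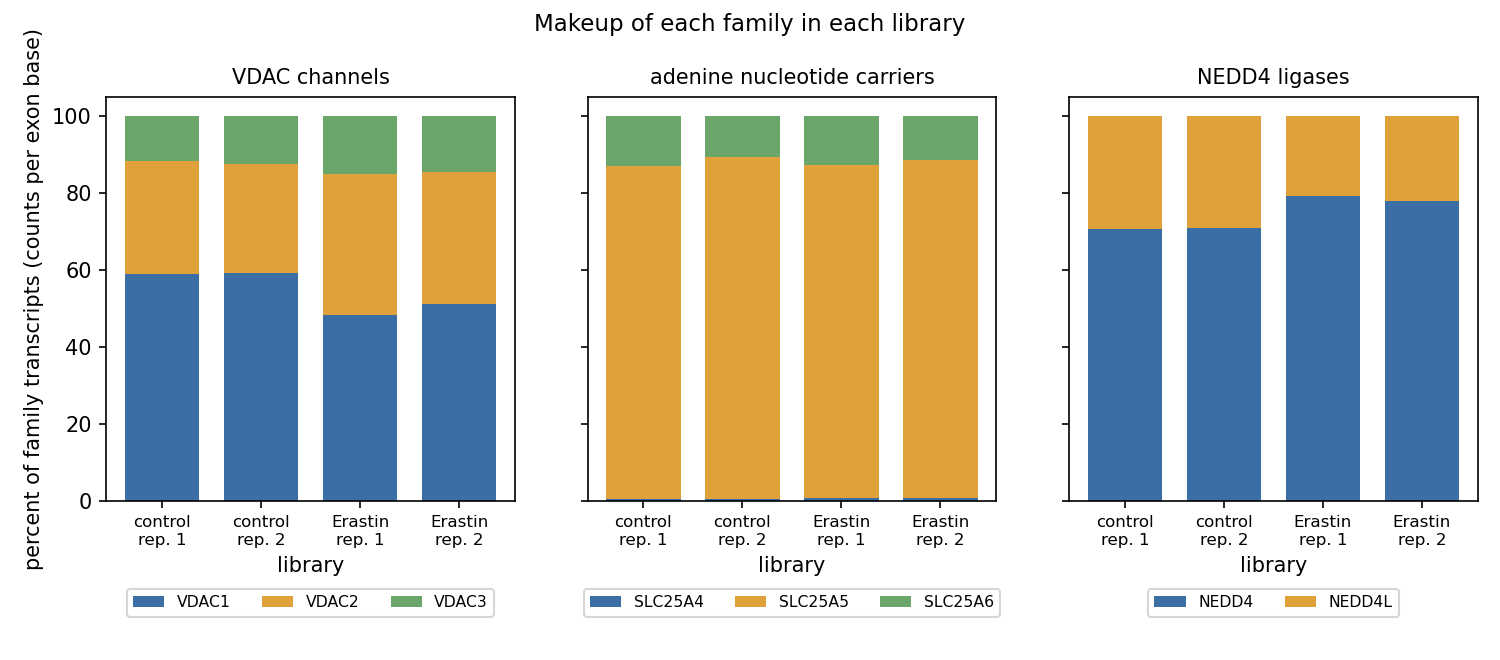
Percent of each family's transcripts, as counts per exon base, that came from each gene in each of the 4 libraries (rep., replicate; bars are single libraries). VDAC1 takes 58.8% and 59.1% of channel transcripts in control and 48.3% and 51.1% in Erastin libraries, NEDD4 goes from 70.6% and 70.8% of the ligase pair to 79.1% and 77.9%, and SLC25A5 holds between 86.5% and 88.8% of carrier transcripts throughout.

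Reads of the channels can also match processed pseudogenes, copies of the transcript elsewhere in the genome, and reads with more than 1 place were not counted. Of the 31-base words in the exons of VDAC1, 41.1% occur elsewhere in hg38, against 36.6% for VDAC2 and 4.55% for VDAC3, and 4.87%, 18.0% and 0% of their 100-base words. Pseudogenes of VDAC2 drew 3678 counts over the 4 libraries, equal to 15.2% of the counts of VDAC2. Nearly all of them were on VDAC2P5 on chromosome 2, with 897 and 864 counts in control and 959 and 954 in Erastin libraries (log2 fold change 0.13, adjusted p 0.333 in edgeR). Pseudogenes of VDAC1 drew 3.44% of the counts of their parent, mainly VDAC1P8 (log2 fold change −0.32, adjusted p 0.170) and VDAC1P1 (−0.40, adjusted p 0.210). VDAC3 had 6 pseudogene counts. The levels of VDAC1 and VDAC2 are therefore less certain than that of VDAC3.

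NEDD4, the founding member of its family of HECT ubiquitin ligases, rose in Erastin-treated cells. NEDD4 (ENSG00000069869, chr15:55826922-55993746, minus strand) had 4351 counts in each control library and 4993 and 5444 in the Erastin libraries, or 142 and 140 CPM against 167 and 173. Both Erastin libraries were above the controls, whose spread was small. The log2 fold change was 0.27 (SE 0.0658, 95% interval 0.12 to 0.41), a rise of 20.5%, with an adjusted p of 0.00541 from edgeR. It was 0.24 with an adjusted p of 0.0738 without Erastin replicate 2. Of the 100-base words of NEDD4, 11.1% occur elsewhere in hg38, and no pseudogene of it is listed.

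NEDD4L, a close relative known for limiting the epithelial sodium channel, fell. NEDD4L (ENSG00000049759, chr18:58044367-58401540, plus strand) had 3473 and 3438 counts in control and 2534 and 2960 in Erastin libraries, which are 114 and 111 CPM against 84.7 and 94.2. The groups were apart, and the Erastin libraries differed more from each other than the controls did. The log2 fold change was −0.33 (SE 0.0748, 95% interval −0.49 to −0.16), a fall of 20.2%, with an adjusted p of 0.00365 from edgeR. Without Erastin replicate 1 it was −0.25, with an adjusted p of 0.0678.

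The ratio of NEDD4L to NEDD4 transcripts per exon base was 0.416 and 0.412 in control and 0.264 and 0.283 in Erastin libraries. NEDD4 therefore rose from a mean of 70.7% to 78.5% of the pair. These values rest on merged exon lengths of 17455 bases for NEDD4L and 9097 for NEDD4. In CPM, not divided by length, NEDD4L and NEDD4 had means of 112 and 141 in control and 89.5 and 170 in Erastin libraries. Their summed level was 22.1 and 21.7 CPM per kilobase in control and 23.2 and 24.4 in Erastin libraries, a ratio of 1.09 that stayed above 1 with library totals (1.12), TPM (1.24) and TPM without mitochondrial genes (1.04). FOXM1 moved against NEDD4, with 4877 and 4439 counts in control and 777 and 986 in Erastin libraries (log2 fold change −2.40, adjusted p 4.46e-09 in edgeR).

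SLC25A5, the adenine nucleotide carrier of dividing cells, had the largest change of the 8 genes. SLC25A5 (ENSG00000005022, chrX:119468400-119471319, plus strand) had 8442 and 8541 counts in control and 5543 and 5846 in Erastin libraries. These are 276 and 275 CPM against 185 and 186, so replicates nearly coincided and the groups were far apart. The log2 fold change was −0.57 (SE 0.0632, 95% interval −0.71 to −0.43), a fall of 32.6%, with an adjusted p of 1.69e-05 from edgeR. Even so, 39.6% of tested genes changed more. Leaving out any 1 library left it between −0.58 and −0.57. An antisense gene, SLC25A5-AS1, shares 227 of its exon bases (15.1%) and had 31 to 51 counts a library, and without strand a read on both was left uncounted. Of the 31-base words of SLC25A5, 32.0% occur elsewhere in hg38, but 0% of its 100-base words, and its pseudogenes drew 14 counts in all.

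SLC25A6, a carrier found in many tissues, fell by a like amount with a wider spread. SLC25A6 (ENSG00000169100, chrX:1386152-1392724, minus strand, in the region shared by both sex chromosomes and listed once) had 1853 and 1497 counts in control and 1189 and 1103 in Erastin libraries. In CPM these were 60.6 and 48.2 against 39.8 and 35.1, and control replicate 1 stood above the rest. The log2 fold change was −0.54 (SE 0.115, 95% interval −0.79 to −0.29), a fall of 31.2%, with an adjusted p of 0.00230 from edgeR. It was −0.37 without control replicate 1 and −0.70 without control replicate 2, and passed in both.

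SLC25A4 (ENSG00000151729, chr4:185143241-185150382, plus strand) had only 123 and 128 counts in control and 126 and 116 in Erastin libraries. At 4.02 and 4.12 CPM against 4.21 and 3.69, the groups overlapped. Its log2 fold change was −0.04 (SE 0.235, 95% interval −0.56 to 0.47) with an adjusted p of 0.900 from edgeR, and its sign turned with plain library totals (0.01) and without Erastin replicate 2 (0.05). The interval spans a fold of 0.680 to 1.39, so a change within this range cannot be told from no change at this depth.

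SLC25A5 and SLC25A6 kept overlapping shares of the carrier transcripts while the carrier sum fell. SLC25A5 made up 86.5% and 88.8% of carrier transcripts in control and 86.5% and 88.0% in Erastin libraries, and SLC25A6 13.2% and 10.8% against 12.9% and 11.5%. The share of the scarce SLC25A4 was 0.390% and 0.412% in control and 0.609% and 0.540% in Erastin libraries, with no overlap. Its own level overlapped between the groups, so this shift in share goes with the fall of the carrier sum. The carrier sum was 213 and 206 CPM per kilobase in control and 143 and 141 in Erastin libraries, a ratio of 0.677 that stayed below 1 under the other scalings (0.647 to 0.772). Carrier transcripts for each channel transcript, a ratio free of scaling, went from 0.986 and 0.932 to 0.649 and 0.662. The testis carrier SLC25A31, the remaining adenine nucleotide carrier of this kind, had 2 counts in 1 library.

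**Figure D3:**
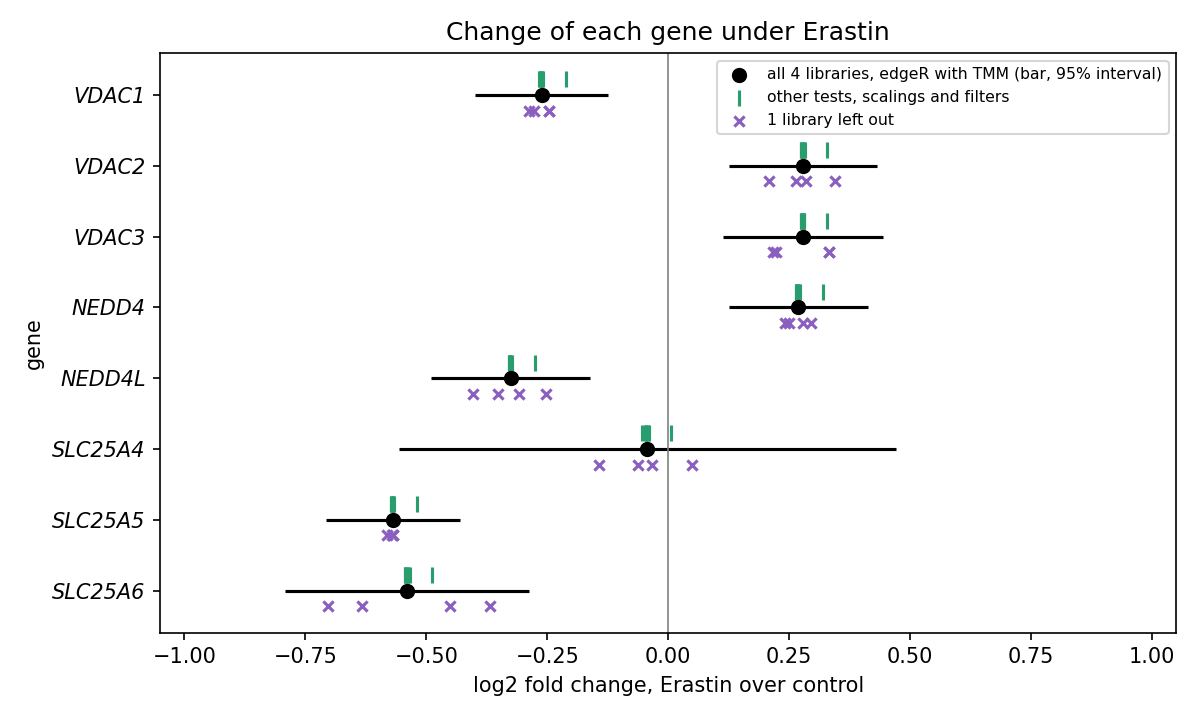
Log2 fold change of each gene, Erastin over control, with all 4 libraries (black points, edgeR; bars, 95% intervals), under other tests, scalings and filters (green marks) and with 1 library left out (purple crosses). The intervals of 7 genes lie to one side of 0, from −0.57 for SLC25A5 to 0.28 for VDAC2 and VDAC3, and that of SLC25A4 spans 0.

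Lists of genes that work with the channels, ligases and carriers were read in the same fit, as counts and medians beside the median of −0.0026 over all tested genes. List genes named below with a log2 fold change under 1 in size were chosen after their values were seen. Of 19 partners of the channels, 18 could be tested. The median log2 fold change was 0.35, with 13 genes up and 1 down, where 23.2% of all tested genes rose and 23.7% fell, and 7 of the 13 kept their call without Erastin replicate 1. PPIF, the cyclophilin of the permeability transition pore, rose from 181 and 183 to 403 and 361 CPM (log2 fold change 1.07, SE 0.0713, edgeR adjusted p 2.46e-07). BAX, which opens the outer membrane in apoptosis, rose from 66.7 and 67.2 to 157 and 153 CPM (1.21, SE 0.0681, edgeR adjusted p 5.80e-08). BCL2L1 (0.78, SE 0.0880, edgeR adjusted p 1.90e-05) and MCL1 (0.32) rose as well, and BCL2 did not pass (0.34, edgeR adjusted p 0.121). The hexokinases HK1 (0.22) and HK2 (0.38), TSPO (0.36) and cytochrome c (CYCS, 0.38) also rose, although HK1 lost its call without Erastin replicate 1 (edgeR adjusted p 0.156) and without control replicate 2 (0.0589), and TSPO without Erastin replicate 1 (0.0632). CKMT1B, a mitochondrial creatine kinase with 27 to 73 counts, rose by 1.26, but its call was lost with DESeq2 (adjusted p 0.055) and without Erastin replicate 1 (edgeR adjusted p 0.0781), and its near-identical copy CKMT1A was at 0. ITPR3, a calcium channel of the endoplasmic reticulum that faces the mitochondria, was the gene that fell (−0.64, SE 0.0651, edgeR adjusted p 8.00e-06).

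Of 15 genes of outer membrane import and assembly, through which VDAC proteins reach their place, 14 could be tested, with a median of 0.13. Among them 5 rose and 2 fell, and 7 of 14 is near the 47.0% of all tested genes that passed. Without Erastin replicate 1, as without Erastin replicate 2, 3 of these 5 and 1 of these 2 kept the call. SAMM50, the core of the machinery that inserts barrel proteins, fell by 0.37 on the log2 scale, and the receptor TOMM70 fell by 0.19. The receptors TOMM20 (0.23) and TOMM22 (0.38) rose. The call was lost for TOMM70 without either Erastin library (adjusted p 0.0854 without replicate 1 and 0.283 without replicate 2 in edgeR), with library totals and with DESeq2, and for TOMM20 without either Erastin library (0.140 and 0.0601). The pore TOMM40, itself a barrel of the same fold as the channels, did not pass (−0.15, edgeR adjusted p 0.139).

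Among 48 other carriers of the SLC25 family, 40 could be tested, with a median of −0.05. In this list 9 rose, 9 fell and 22 did not pass, a share of 18 in 40 that is near the 47.0% of all tested genes, and 6 of the 9 falls kept their call without Erastin replicate 1. The larger changes were UCP2 (−1.97, SE 0.159), SLC25A34 (1.68, SE 0.515, from 12 to 72 counts, and 1.08 with an edgeR adjusted p of 0.239 without Erastin replicate 2 and 1.34 with 0.0560 without control replicate 1), SLC25A29 (−1.40, SE 0.117), a carrier of basic amino acids, and SLC25A30 (1.16, SE 0.0972). The phosphate carrier SLC25A3, which supplies the phosphate joined to the ADP brought in by SLC25A5, fell by 0.31 on the log2 scale (edgeR adjusted p 0.00154). Of 9 other ligases of the NEDD4 family and their adaptors, each of them tested, the median was 0.33, with 6 up and 0 down, where 23.2% of all tested genes rose and 23.7% fell. Of these 6, 4 kept their call without Erastin replicate 1 and 4 without Erastin replicate 2. HECW2 rose by 1.38 (SE 0.122, edgeR adjusted p 2.58e-06), from 11.7 and 10.4 to 28.2 and 29.4 CPM, and the adaptor NDFIP2, which recruits NEDD4 to membranes, by 0.54.

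**Figure D4:**
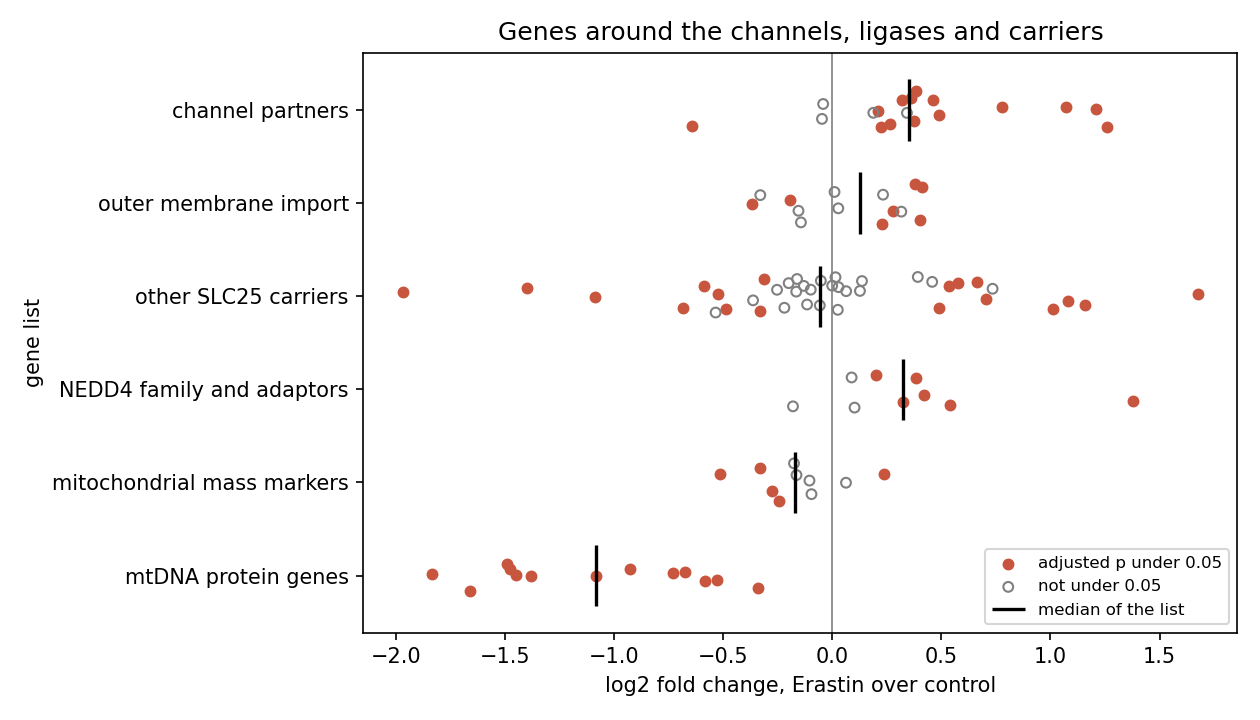
Log2 fold change, Erastin over control, of the tested genes of 6 lists (filled points, edgeR adjusted p under 0.05; open points, not under 0.05; vertical jitter has no meaning; black bars, list medians). Medians run from −1.08 for the protein genes of mitochondrial DNA to 0.35 for the channel partners.

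The falls of SLC25A5, SLC25A6 and VDAC1 were set beside other mitochondrial transcripts. All 13 protein genes of mitochondrial DNA fell, 7 of them by at least 1 on the log2 scale, with a median of −1.08, where 23.7% of all tested genes fell and 9.34% by at least 1. Without Erastin replicate 1, MT-ATP8 lost its call (−0.41, edgeR adjusted p 0.0772). MT-CO3 (−1.83), MT-CO1 (−1.66), MT-ATP6 (−1.49) and MT-ND4 (−1.48) fell most. Among 10 nuclear genes used as markers of mitochondrial mass, 4 fell and 1 rose (LONP1, a protease, 0.24), the median being −0.17, and this share of calls is near the 47.0% of all tested genes. Those that fell were SDHA (−0.51), HSPD1 (−0.33), CS (−0.28) and CPT1A (−0.24). Without Erastin replicate 1, LONP1 (log2 fold change 0.18), CS (−0.20) and CPT1A (−0.20) lost their calls. LONP1 also lost its call without control replicate 2 (0.11), and CPT1A without control replicate 1 (−0.16). With library totals, CPT1A was at −0.19 and did not pass (edgeR adjusted p 0.0509). Whether less mitochondrial mass had a part in the fall of SLC25A5, SLC25A6 and VDAC1 was not tested.

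The transcripts most like each channel were found by the distance between log2 CPM values, each centred on its gene's mean, over the 4 libraries and 9167 protein-coding genes whose mean level was 10 CPM or more. Those nearest VDAC1 were NCBP1, GLG1 and CUL4B (distances 0.0211 to 0.0224). Nearest VDAC2 were HARS2, MPLKIP and HTATSF1 (0.00664 to 0.0174), and nearest VDAC3 were PLD3, TAB3 and ZNF106 (0.0162 to 0.0229). Likeness over 4 libraries was not rare, since 294, 232 and 222 genes lay within 0.1 of VDAC1, VDAC2 and VDAC3.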

How the data were processed

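Total RNA of U87 cells was sequenced in 4 libraries. The authors deposited whole-number counts of reads per gene, not normalized, as 1 table. The column of control replicate 1, deposited by the authors without decimals, was treated as estimated counts, and rounding changed 0 of its values. It thus held whole-number counts of reads, like the columns of the other libraries. The table also lists each gene's coordinates and exon length, deposited as other, non-measured columns. Per the file headers, featureCounts 2.0.3 counted reads on Ensembl release 90 genes of GRCh38, without strand, leaving out reads with several places or genes and counting the reads of a pair one by one; the submitters' processing notes name HISAT2 2.1.0, featureCounts 2.0.4 and DESeq2 1.18.1, and the methods name htseq-count.

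Symbols were joined by Ensembl identifier for 57532 of 58302 genes. Differential expression was tested by edgeR 4.0.16 under R 4.3.3 (minimum count of 10 in filterByExpr, TMM, the quasi-likelihood test without a block, Benjamini-Hochberg over 16751 genes), at an adjusted p of 0.05 and, for size, a log2 fold change of 1. TMM factors lay between 0.971 and 1.02, and the biological coefficient of variation was 10.3%. All p-values are two-sided. Alternatives were DESeq2 1.42.0, other scalings and filters, halved counts, a replicate block and each library left out; the scalings of family sums were added after the data were seen. The methods were tested on simulated data.

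The genes and lists were chosen with earlier results of these data known. Named were the 8 genes, FOXM1, up to 4 list genes past both thresholds with the largest change, and markers highest or at 0. The remaining immune, endothelial and glioblastoma line markers were named as well. Also named were up to 3 pseudogenes a parent with at least 10 counts, and the 3 genes nearest each channel. Promoters came from hg38 and RefSeq starts from GRCh38.p14. PCR reads without molecular identifiers are not independent molecules.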

Additional observations from a re-analysis of the deposited data

How the results depend on the processing

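With all 4 libraries, 7 alternatives (DESeq2, RLE factors, library totals, no filter, at least 10 counts in every library, halved counts and a replicate block) kept the direction and the call of the 8 genes in 55 of 56 values; SLC25A4 turned to 0.01 with library totals (0.00623 before rounding). With a library left out, 26 of 32 values kept both. Over the libraries left out, the log2 fold change ranged from −0.29 to −0.25 for VDAC1, 0.21 to 0.35 for VDAC2, 0.22 to 0.33 for VDAC3, 0.24 to 0.29 for NEDD4, −0.40 to −0.25 for NEDD4L and −0.14 to 0.0495 (without Erastin replicate 2) for SLC25A4; the calls lost are given with each gene. Without Erastin replicate 1, 1 of the 8 genes passed upward and 2 downward, and without the other libraries 2 or 3 upward and 4 downward; fewer libraries were tested there. Over all tested genes, the deviations of libraries with the same replicate number had a correlation of 0.0175. Whether replicate numbers pair the samples was not tested further, and SLC25A24, described below, followed the number in both groups. With the replicate block, VDAC1 was at −0.26, VDAC2 at 0.28, NEDD4L at −0.33 and SLC25A5 at −0.57, with no call changed. Genes past both thresholds were 1039 higher and 1568 lower, against 1046 and 1564 without the block. Scaling moved the family sums, Erastin over control: the channels to 1.02 (library totals), 1.13 (TPM) and 0.945 (TPM without mitochondrial genes), the carriers to 0.701, 0.772 and 0.647, and the NEDD4 pair to 1.24 (TPM) and 1.04 (TPM without mitochondrial genes). The SLC25A4 share of carrier transcripts rose by 0.52 percentage points on plain counts, not divided by length, against 0.17. Depth limits SLC25A4 most, with at most 128 counts a library.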

Other observations

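SLC25A24, a calcium-regulated carrier of ATP and magnesium picked after its values were seen, was high in replicate 1 of both groups and low in replicate 2, with 303 and 18 counts in control cells and 205 and 13 in Erastin-treated cells. Its log2 fold change was −0.53 (SE 1.00), with an adjusted p of 0.697 in edgeR's quasi-likelihood test.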
